A study of Mus musculus with 8 samples.

Results

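The transcripts with UCSC identifiers are the rows of the deposited small RNA table whose name begins with uc and a digit, the accession format of the UCSC Genes set. They were taken by name alone, with no filter on level, and there were 56 of them among 964 rows. The other rows were 328 tRNA, 291 snRNA, 279 snoRNA and 9 Y RNA rows and 1 other row. The libraries were made from GMLPs (granulocyte-monocyte-lymphoid progenitors) sorted from the bone marrow of mice. There were 4 libraries of genotype iMLL-ENL, which carries an inducible MLL-ENL fusion, and 4 of genotype WT. Cells of both genotypes were cultured for 3 days with doxycycline (DOX), so exposure to the drug is shared and the genotype differs. Neither the strain, the promoter that drives the fusion, the age of the mice nor whether replicates are separate mice is given in the sources used here, so each p-value reflects variation among these 8 libraries, part or all of which may be technical. The table holds no mRNA markers, so the cell type and the fusion itself were not checked. In such bulk samples fewer cells of a type and less RNA per cell cannot be told apart.

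MLL-ENL joins part of the histone methyltransferase MLL to ENL, a component of transcription elongation complexes, and drives leukaemia from blood progenitors. UCSC Genes was a gene set built from RefSeq, GenBank, Rfam and tRNA gene predictions, so that an identifier of this kind can stand for a coding or a non-coding transcript. Kits for miRNA libraries ligate adapters to short RNA, and reads on other transcripts can be whole short RNAs or fragments of longer ones. Read lengths were not analysed here. The files pair none of the 56 identifiers with a gene. A search for the identifiers themselves found 0 in GENCODE release M21 and 0 in the RefSeq gene table for GRCm38.p6. Such a search cannot show whether these transcripts are listed there under other names. The members therefore get no gene name, role, position or sequence here. They fall into blocks by the number after uc, with 49 in uc029, 3 in uc008, 2 in uc009 and 2 in uc012.

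Values are reads scaled to 1000000 per library (RPM). Taking the smallest common step of a library's values as 1 read, the scale rests on 7616000 to 9274000 reads in iMLL-ENL and 5914000 to 7699000 in WT. A level of 3 reads lay at 0.323 to 0.394 RPM in iMLL-ENL and at 0.39 to 0.507 RPM in WT, and such floors cover counting error only. Over rows of mean 10 RPM or more, iMLL-ENL libraries correlated with the rest of their group at a mean r of 0.989 to 0.993. In WT the mean r was 0.893 for replicate 2, which stood apart, and 0.949 to 0.963 for replicates 1, 3 and 4, each averaged with replicate 2 included.

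The members fell into 2 sets with a wide gap in level between them. One held uc012ath.2 and uc029vxe.1, with means of 5893 and 197 RPM over the 8 libraries. The other held 54 members with means of 1.67 to 4.59 RPM, of which uc008egl.1 at 4.59 and uc009nlz.2 at 4.23 RPM came nearest to the dividing mean of 10 RPM. In the plot of ratio against level the low members form a compact group at the left edge, and both abundant members lie near a ratio of 1.

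**Figure D1:**
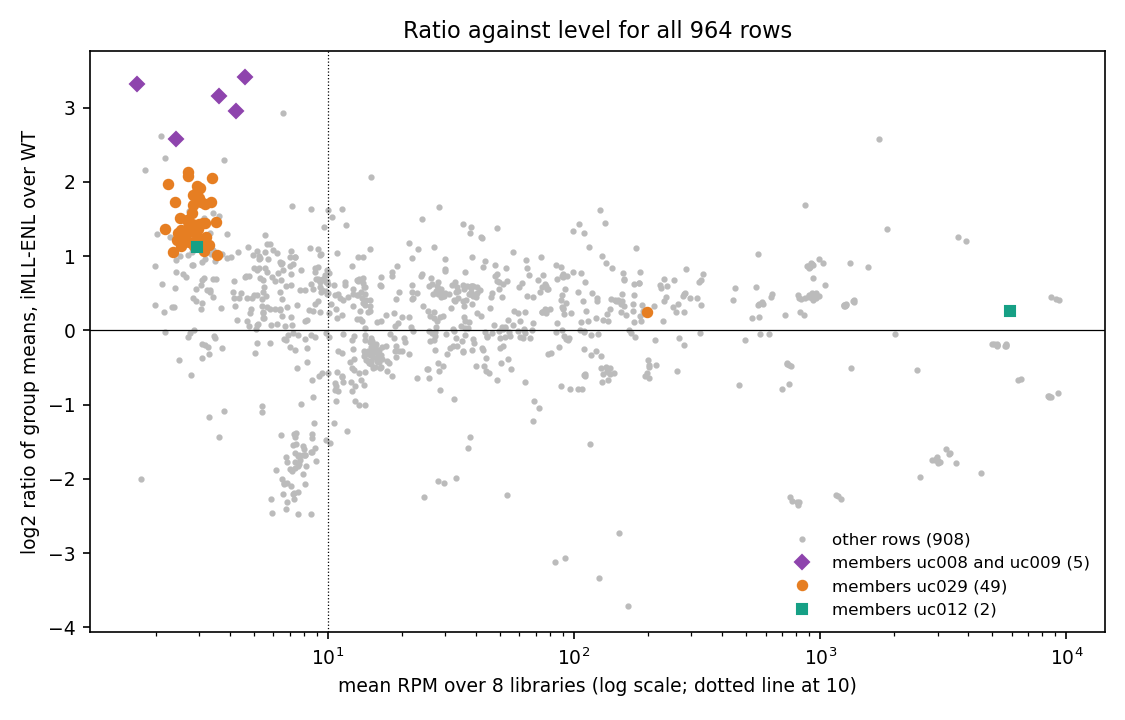
Log2 ratio of group means (iMLL-ENL over WT, vertical axis) against the mean RPM over 8 libraries (horizontal axis, log scale) for all 964 rows, with members coloured by identifier block and the other 908 rows in grey. The 54 low members lie above 0, those of uc008 and uc009 highest, and the 2 abundant members lie at 0.26 and 0.25.

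uc012ath.2 ranked 11th by mean of all 964 rows and held 92.9% to 95.7% of the members' summed RPM in a library. It measured 6390, 5893, 6258 and 7152 RPM in iMLL-ENL replicates 1 to 4, against 5628, 4379, 5173 and 6274 RPM in WT replicates 1 to 4. The groups overlap, since WT replicate 4 lies above iMLL-ENL replicate 2 and above replicate 3, and WT replicate 2 is the lowest of the 8. The means were 6423 ± 529 RPM in iMLL-ENL and 5363 ± 797 RPM in WT (SD, n = 4 each). The log2 fold change was 0.27 ± 0.19 (SE) and did not pass the test (limma adjusted p = 0.31). Without WT replicate 2 it was 0.18 (limma adjusted p = 0.19), and after quantile normalization 0.91 (0.061).

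uc029vxe.1 measured 205, 197, 200.4 and 255 RPM in iMLL-ENL, against 184, 152, 199 and 186 RPM in WT. Here too the groups overlap, and iMLL-ENL replicate 4 lies well above all other libraries. The means were 214 ± 27 RPM in iMLL-ENL and 180.5 ± 19.9 RPM in WT (SD, n = 4 each). The log2 fold change was 0.24 ± 0.14 (limma adjusted p = 0.21), and 0.17 without WT replicate 2 (limma adjusted p = 0.40). It passed the test when each library was scaled by its sum over the rows (0.53, limma adjusted p = 0.036) and by that sum without the 5 most abundant rows (0.56, 0.045). Under these scalings 35.5% and 34.7% of the 636 rows were called higher and the median log2 fold change of all rows was 0.56 and 0.59, so uc029vxe.1 lay just below the median row in both. These members were the 2 of 56 among the 636 rows with a mean of 10 RPM or more. Of those 636 rows 19.2% were called higher in iMLL-ENL at an adjusted p under 0.05 and 53 rows were called lower. Of the 2 members 0 were called in either direction, and 0 had an unadjusted limma p under 0.05. After TMM scaling, which trims extreme ratios before it sets each library's factor, the log2 fold changes were -0.005 for uc012ath.2 and -0.03 for uc029vxe.1 over the 636 rows. With the factors set on all 964 rows they were -0.13 and -0.15. The authors' deposited table gives them at -0.14 and -0.16, with FDR of 0.86 and 0.83.

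**Figure D2:**
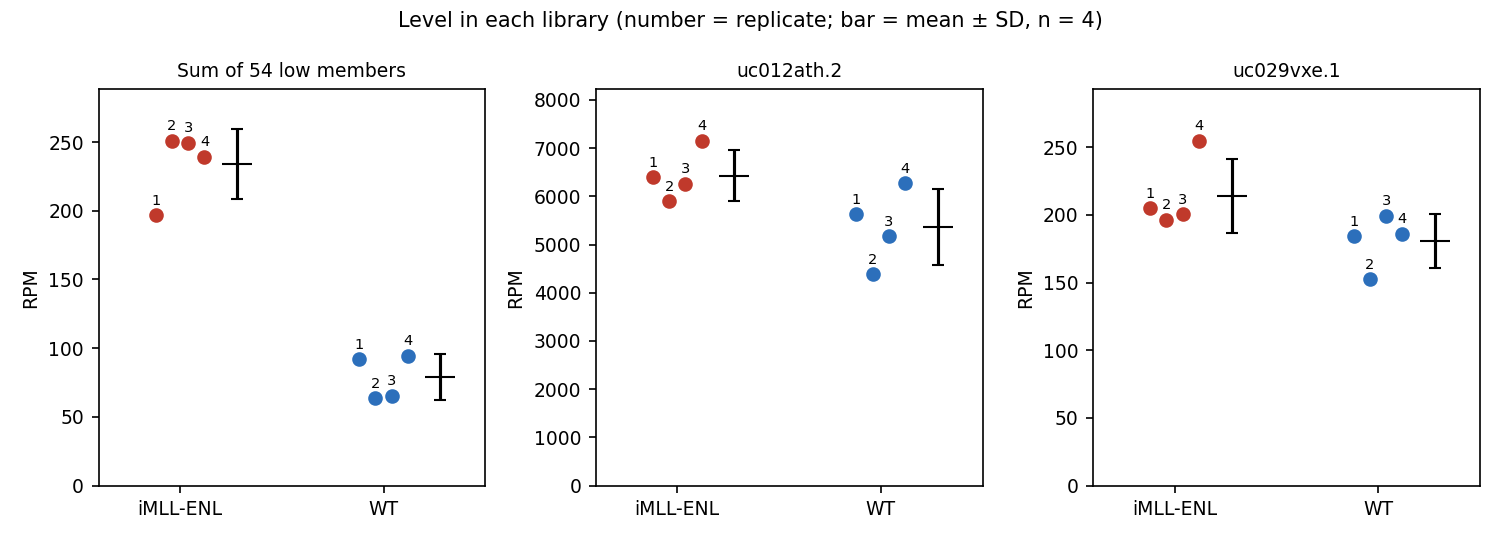
RPM in each library for the sum of the 54 low members, for uc012ath.2 and for uc029vxe.1, iMLL-ENL left of WT, with the replicate number above each point and the mean ± SD (n = 4) beside it. The groups are apart for the sum (197 to 251 RPM in iMLL-ENL, 63.6 to 94.5 RPM in WT) and overlap for both single members.

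Together the 54 low members measured 197, 251, 249 and 239 RPM in iMLL-ENL replicates 1 to 4, against 92.0, 63.6, 65.6 and 94.5 RPM in WT replicates 1 to 4. Every iMLL-ENL library was above every WT library. The means were 234 ± 25 RPM in iMLL-ENL and 78.9 ± 16.6 RPM in WT (SD, n = 4 each), a ratio of 2.97, or 2.79 without WT replicate 2. As a share of the table's total this was 0.0852% in iMLL-ENL and 0.0238% in WT. Single low members had means of 3.03 to 8.40 RPM in iMLL-ENL and 0.305 to 2.34 RPM in WT, and all 54 had a ratio above 1. They rest on few reads, by the same estimate 11 to 100 per member and library in iMLL-ENL (median 35) and 0 to 22 in WT (median 10). In WT 13 of the values were at or under 3 reads, and in iMLL-ENL 0.

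The direction of these 54 cannot be separated from how the table was made. Each of the 964 rows reached 10 CPM in at least 2 libraries when CPM is counted per 1000000 of the table's own total. The lowest second-highest value of any row was 10.1 on that scale, so the values end sharply at 10. Whether the authors filtered there is not given in the sources used here. That level corresponds to 2.60 to 2.92 RPM in iMLL-ENL and 3.00 to 3.84 RPM in WT. All 54 low members reached it in at least 2 iMLL-ENL libraries and 0 of them in 2 WT libraries; uc029www.1 reached it in 1 WT library and the other 53 in none. Rows that enter in this way are those with high iMLL-ENL values, and an identifier below that level in both groups would not be listed. Counts, medians, calls and p-values of the low members are therefore given as a description and support nothing.

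**Figure D3:**
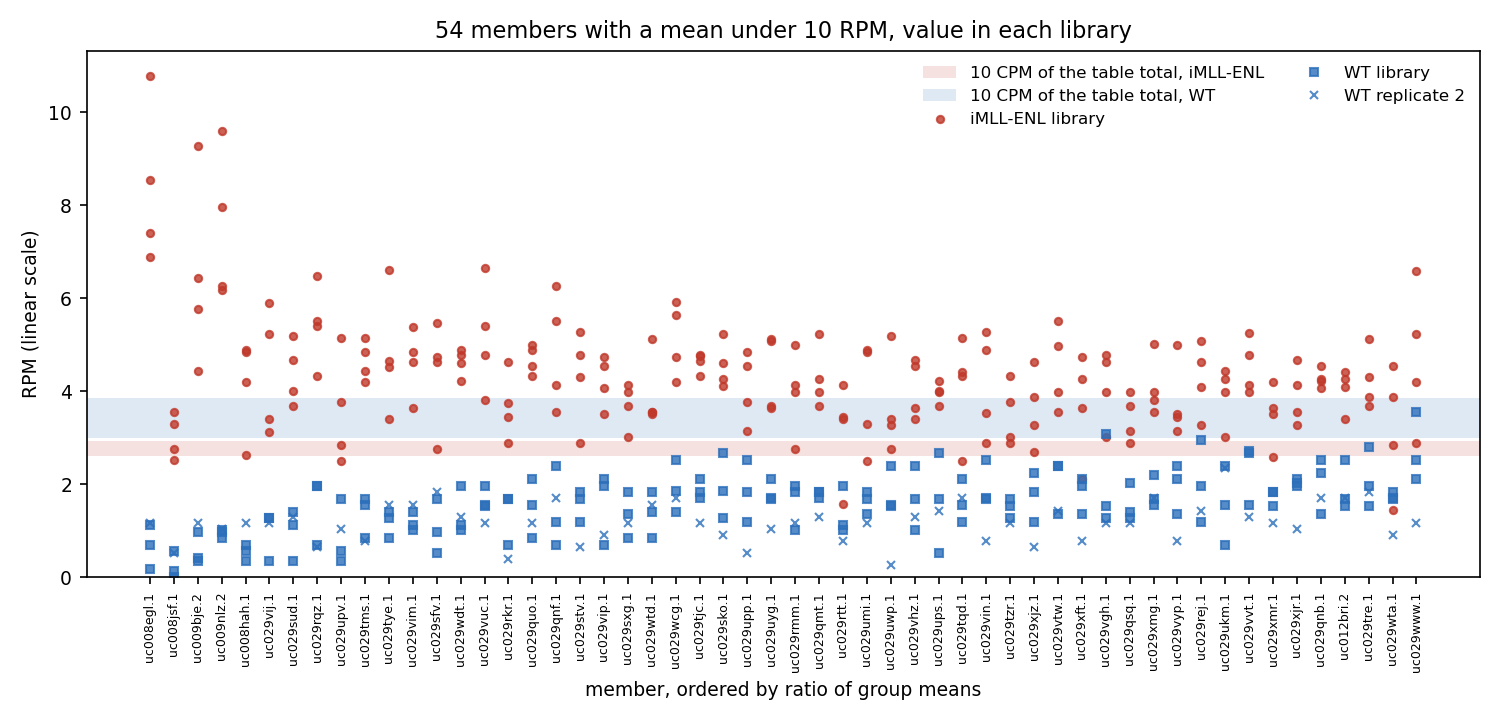
RPM of the 54 low members in each library (linear scale), ordered from the highest ratio of group means on the left to the lowest on the right, with iMLL-ENL libraries as circles, WT libraries as squares and WT replicate 2 as crosses. The shaded bands mark 10 CPM of the table's total, at 2.60 to 2.92 RPM in iMLL-ENL and 3.00 to 3.84 RPM in WT, and most WT values lie below both.

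With that limit, the groups did not overlap for 49 of the 56 members, where 29.3% of all rows had iMLL-ENL wholly above WT. The 5 low members with overlapping groups were uc029www.1, uc029vgh.1, uc029xft.1, uc029wta.1 and uc029rtt.1, named after their values were seen. When all 964 rows were tested without a filter, 52 members were called higher in iMLL-ENL and 0 lower, beside 23.9% of all rows called higher. Their log2 fold changes were 0.79 to 2.42 on the log2(RPM + 1) scale, which understates changes at this level. The 2 low members not called were uc029www.1 (0.79 ± 0.29, limma adjusted p = 0.069) and uc029wta.1 (0.68 ± 0.27, 0.091). The median log2 fold change was 1.01 over the members and 0.33 over all rows. TMM scaling moved these medians to 0.74 and -0.04. It left 36 members called higher, where 8.71% of all rows were. Quantile normalization left 10 members called (7.05% of all rows) and centring on the median 14 (4.67%). Called on the deposited values and under all 5 other scalings were 9 members, the 5 of uc008 and uc009 and uc029rqz.1, uc029wdt.1, uc029tms.1 and uc029sud.1, where 3.42% of all rows were called higher in all 6. With each library left out in turn, 37 members (without iMLL-ENL replicate 3) to 53 (without WT replicate 2) were called, where 12.1% and 46% of all rows were. Leaving out iMLL-ENL replicates 1, 2 and 4 gave 49, 42 and 41 members, beside 14.4%, 14% and 13.1% of all rows. Leaving out WT replicates 1, 3 and 4 gave 46, 43 and 52 members, beside 12.6%, 15.6% and 24.5% of all rows. By the authors' deposited table, an FDR under 0.05 was given for 19 of the 56 members, all higher in iMLL-ENL, where 4.56% of all rows were called higher.

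The 5 members of blocks uc008 and uc009 had the highest ratios of all 56. They were grouped after their values were seen, so their values are a description. uc008egl.1 measured 8.53, 10.8, 7.39 and 6.89 RPM in iMLL-ENL, against 1.12, 1.17, 0.17 and 0.70 RPM in WT. The ratio of means was 10.6, and 12.7 without WT replicate 2. Its log2 fold change was 2.42 ± 0.25 (limma adjusted p = 0.0016), and 1.85 after quantile normalization (0.0038). The authors' deposited table gives 2.97 (FDR 5.5e-07). All 4 iMLL-ENL libraries lie several times above the highest WT library, and WT replicate 3 is at 1 read by the estimate.

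uc009nlz.2 measured 6.17, 9.60, 7.96 and 6.26 RPM in iMLL-ENL, against 0.98, 1.04, 1.01 and 0.84 RPM in WT, a ratio of 7.75. WT replicate 2 is level with the other WT libraries here, and without it the ratio was 7.95. The log2 fold change was 2.09 ± 0.18 (limma adjusted p = 0.00070). uc009bje.2 measured 6.43, 9.27, 4.44 and 5.76 RPM in iMLL-ENL, against 0.98, 1.17, 0.34 and 0.42 RPM in WT, a ratio of 8.90. In both, iMLL-ENL replicate 2 is the highest library. uc008hah.1 measured 4.20, 4.85, 4.89 and 2.63 RPM in iMLL-ENL, against 0.70, 1.17, 0.34 and 0.56 RPM in WT, a ratio of 5.98. uc008jsf.1, the lowest member of all, measured 2.76, 3.56, 3.30 and 2.51 RPM in iMLL-ENL, against 0.56, 0.52, 0 and 0.14 RPM in WT. That is an estimated 103 reads over the iMLL-ENL libraries and 9 over the WT libraries, and the ratio of means was 9.94. The groups do not overlap in any of these 5. All 5 reached 10 CPM of the table's total in at least 2 iMLL-ENL libraries and in 0 WT libraries.

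As a share of the 54 low members' summed RPM, these 5 took 14.3%, 15.2%, 11.2% and 10.04% in iMLL-ENL replicates 1 to 4, against 4.72%, 7.98%, 2.84% and 2.81% in WT replicates 1 to 4. Such a share does not change with the scaling of a library. These 5, grouped after their values were seen, have the highest ratios of the 54. A larger share in iMLL-ENL therefore follows from the grouping and supports nothing. The sum of the 5 was 29.5 ± 6.0 RPM in iMLL-ENL and 3.48 ± 1.48 RPM in WT (SD, n = 4 each), a ratio of 8.48, and 10.004 without WT replicate 2. The sum of the 48 low members of uc029 was 201 ± 24 RPM in iMLL-ENL and 73.6 ± 16.5 RPM in WT, a ratio of 2.73, and 2.53 without WT replicate 2. The remaining low member, uc012bri.2, had a ratio of 2.18.

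The 48 low members of uc029 were close to each other in level and in ratio. The split at a mean of 10 RPM leaves out uc029vxe.1, and all 48 reached 10 CPM in at least 2 libraries of iMLL-ENL alone. Such a selection narrows the range of levels and ratios, so the closeness is in part set by it. Their means lay at 3.14 to 5.43 RPM in iMLL-ENL and 0.905 to 2.34 RPM in WT, and their ratios at 2.02 to 4.38 with a median of 2.58. The largest were those of uc029vij.1 (4.38), uc029sud.1 (4.21) and uc029rqz.1 (4.14), and the smallest that of uc029www.1 (2.02). uc029rqz.1 measured 4.33, 5.39, 6.48 and 5.51 RPM in iMLL-ENL, against 1.96, 0.65, 0.68 and 1.96 RPM in WT. uc029www.1 measured 4.20, 6.58, 5.23 and 2.88 RPM in iMLL-ENL, against 2.10, 1.17, 3.55 and 2.52 RPM in WT. The spread of the 48 log2 ratios was 0.30 (SD), beside a median counting error of 0.25 for a single member's ratio. By size of the log2 fold change in the fit without a filter, uc029tms.1, uc029tye.1, uc029vim.1 and uc029sfv.1 are also named. Their ratios were 3.84, 3.78, 3.63 and 3.53.

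Independent counting gives a variance of reads over rows equal to the mean only where all rows share the same expected level. Rows that differ in level give a higher value, so the values by library below mix counting with differences in level. For the 48, which were set apart after values were seen, variance over mean was 1.08 to 1.47 in the iMLL-ENL libraries and 0.656 to 1.70 in the WT libraries. For all 54 low members it was 2.85, 4.47, 1.99 and 1.56 in iMLL-ENL replicates 1 to 4 and 1.07 to 2.03 in the WT libraries. Over the 85 rows of other classes with means no higher than the highest low member it was 2.95 to 4.93 in iMLL-ENL and 3.27 to 16.7 in WT, the highest in WT replicate 2, so in iMLL-ENL replicates 1 and 2 all 54 together lay close to the 85. Once each row's own mean was allowed for, the ratio was 1.09 in iMLL-ENL and 1.09 in WT for the 48 and 1.25 in iMLL-ENL and 1.14 in WT for the 54, against 1.72 in iMLL-ENL and 4.55 in WT for the 85. The sets are not alike, since all 54 reached 10 CPM in at least 2 libraries of iMLL-ENL alone. Of the 85, 58 did so and 17 reached it in both groups. This ratio was not computed for the 58, so the comparison does not set the members apart. Whether the 48 share sequence or reads was not tested, and if they do, calls over them are not independent. No pair of rows in the table had equal values in all 8 libraries.

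**Figure D4:**
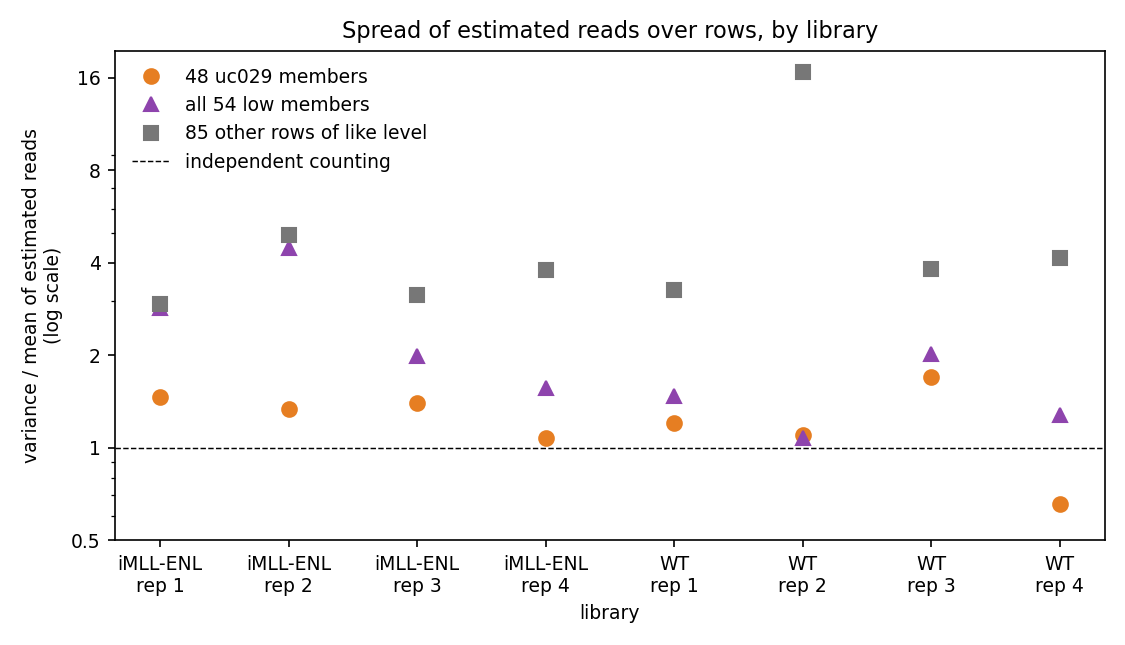
Variance over mean of the estimated reads across rows (vertical axis, log scale) in each library, for the 48 low members of uc029 (circles), all 54 low members (triangles) and 85 rows of other classes at like level (squares). The dashed line is the value of independent counting for rows that share the same expected level, and rows that differ in level lie higher. The 48 lie between 0.656 and 1.70, and the triangles come close to the squares in iMLL-ENL replicates 1 and 2 (2.85 against 2.95, and 4.47 against 4.93).

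The 85 other rows of like level show what the table holds at this depth. Of them 68 had a ratio above 1, with a median of 1.60, and 26 were called higher and 2 lower without a filter. In 58 of the 85 the level of 10 CPM was reached in at least 2 iMLL-ENL libraries and in fewer than 2 WT libraries, as in the low members. These 58 had a median ratio of 1.90 and a range of 0.874 to 6.15. The groups did not overlap in 30 of them, where 29.3% of all rows had iMLL-ENL wholly above WT. Without a filter 25 of the 58 were called higher, beside 23.9% of all rows. The low members had a median ratio of 2.68 and a range of 2.02 to 10.6. Leaving out WT replicate 2 moved the median ratio of the 58 to 2.07 and that of the low members to 2.47. The groups then did not overlap in 41 of the 58 and in 49 of the 54 low members, beside 46% of all rows. The difference between these sets was not tested.

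Across the 8 libraries, which share the difference between the genotypes, the values of uc012ath.2 on the log2(RPM + 1) scale were most like those of Snora75-201 (Pearson r = 0.983) and tRNA1821-SerGCT (0.981) among rows of other classes with a mean of 10 RPM or more. Those of uc029vxe.1 were most like U2.20-201 (0.951) and tRNA112-GlyCCC (0.947). uc008egl.1 was nearest to U2.17-201 (0.985) and tRNA2023-LysCTT (0.973), uc009nlz.2 to Y_RNA.6-201 (0.987) and tRNA100-IleAAT (0.983), and uc009bje.2 to tRNA719-GluCTC (0.977) and tRNA622-AlaCGC (0.971). Each r is the highest of many and describes these libraries only.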

How the data were processed

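Per the labels' protocols, RNA from sorted and cultured GMLPs was made into libraries with a QIAseq miRNA kit. The genome build was GRCm38, per the submitters' processing notes. No aligner, counter, annotation or filter is named in those sources. The authors deposited RPM values, called TPM in the table, that are whole multiples of 1 step per library for 99.8% to 100% of values within 0.0055 RPM. The authors' deposited log2 fold changes, mean log2 CPM, p-values and FDR are quoted only where named. The main test, limma 3.58.1 (R 4.3.3, statmod 1.5.0; trended, robust prior) on log2(RPM + 1), two-sided, with Benjamini-Hochberg adjustment over all rows tested at 0.05, took rows with a mean of 10 RPM or more. Since this left 2 members, the fit without a filter is given beside it. In simulated data the test recovered 90% of rows changed by 1 log2 unit without the filter (964 rows) and 97% with it (636 rows). Of unchanged rows, 8 of 764 were called without the filter and 7 of 436 with it. The simulation pooled all levels, gave both groups equal spread and held no library that stood apart as WT replicate 2 does. It therefore does not give the power for these libraries or for the low members. Ratios are of group mean RPM. Sums were not tested. TMM was unweighted. Summaries were made with numpy 2.4.6 and pandas 2.3.3 under Python 3.11.15.

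The members and lists were chosen with earlier results of these data known. Named members were those called in the main test (none), the 5 of highest mean and those nearest to a mean of 10 RPM; where all rows were tested, up to 12 called members by size of the log2 fold change were named as well. Others are said to be named after their values were seen.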

Additional observations from a re-analysis of the deposited data

Results flagged for a closer look

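Of 32 groups of 4 libraries examined (14 named members and 2 sums, each genotype), 2 held a library far from the other 3, where chance flags about 1 group in 20. For uc029vxe.1, iMLL-ENL replicate 4 was at 255 RPM, beside 197 to 205 RPM in the other iMLL-ENL libraries. For uc029vij.1, WT replicate 3 was at 0.34 RPM, beside 1.17 to 1.26 RPM in the other WT libraries, and its log2 fold change of 1.43 was 1.25 to 1.55 with each library left out in turn.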

How the results depend on the processing

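In the main test 175 rows of the whole table differed, 457 with sample quality weights, 282 without a filter on low values, and 55 to 361 with each library left out in turn. It was 361 without WT replicate 2, 201 without WT replicate 4, and 55 to 111 without any other single library. Of the 2 members tested, 0 were called higher, 0 without any 1 library, 1 when libraries were scaled by their sum over the rows, and 1 when that sum omitted the top 5 rows by mean, where 35.5% and 34.7% of all rows were called higher, beside 19.2% as deposited. Calls of members without the filter are a description and support nothing, since all 54 low members reached 10 CPM in at least 2 libraries of iMLL-ENL alone. Without the filter 52 of 56 members were called higher (23.9% of all rows), beside 25 of the 58 other low rows that reached that level in the same way. The count of members was 10 after quantile normalization (7.05%), 14 after median centring (4.67%) and 37 to 53 with each library left out in turn (12.1% without iMLL-ENL replicate 3, 46% without WT replicate 2). The cause of these differences was not tested, except that more rows are tested without the filter. No member was called lower in any setting run. TMM scaling over the 636 rows changed the sign, to -0.0053 ± 0.22 (SE) for uc012ath.2 and -0.028 ± 0.15 for uc029vxe.1. Both values are smaller than their SE (limma adjusted p = 0.99 and 0.96). The log2 ratio of the members' summed level was 0.29, and 0.20 to 0.37 with each library left out. It was 1.57 for the members under 10 RPM and 0.55 when scaled by the sum over the rows. After TMM scaling with factors set on the 636 rows of mean 10 RPM or more it was 0.0068. The summed level was not computed with factors set on all 964 rows, where uc012ath.2, which makes up most of it, was at -0.13. Deviations of same-numbered libraries from their group means correlated at 0.43, 0.34 and 0.44 for replicates 1, 2 and 4, each the highest for that iMLL-ENL replicate. For replicate 3 the correlation was -0.15. A correlation over 0.1 was asked of all 4 pairs and held in 3, so the main test does not take the numbers as pairs. Whether same-numbered libraries were processed together was not tested. With a replicate block 188 rows and 0 of 2 members were called, and 47 of 56 members without the filter, where 23.9% of all rows were called higher. The fits without a filter under other settings were chosen after seeing the data. The planned count models were not run, because no single value in 6 of the 8 libraries shows what 1 read is worth. Depth limits the low members, most of all in WT.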
